A study of Homo sapiens with 12 samples.

Results

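The comparison of 4 Gy with 0 Gy in degron (−) cells at 48 h rests on 4 of the 12 libraries of the series, 2 at each dose. Degron (−) cells are the human pancreatic cancer line PANC-1 after infection with a retrovirus that carries ZsGreen fused to the degron of ornithine decarboxylase, which the proteasome destroys, and selection with G418. Almost no cell of this line is ZsGreen positive, and the paper calls it non-concentrated. Whether the sequenced degron (−) cells passed a sorter is not stated, and a library may hold more than 1 kind of cell. Degron (++) cells, which carry the same vector, are the brightest part of a line that was enriched by repeated sorting for ZsGreen. The groups used here are degron (−) at 0 Gy and 48 h, degron (−) at 4 Gy and 48 h, degron (−) at 4 Gy and 30 h, and degron (++) in the same 3 conditions, with 2 libraries in each. No group at 0 Gy and 30 h was analysed here. Gamma rays came from a cesium source, and the labels give no starting point for the hours. The titles of the degron (−) libraries call them ZsGreen–, whereas their descriptions call them d+, so the labels conflict. The unit is FPKM, the fragments of a gene scaled by its exon length and by the mapped total of the library, given for 23284 gene symbols. Of these, 12190 had FPKM of at least 1 in at least 2 of the 4 libraries and were tested, and the other 11094 were not.

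Ionizing radiation breaks DNA, and in the first hours kinases such as ATM turn on checkpoint genes and hold the cell cycle. In the days that follow, cells that divided with broken DNA can form micronuclei, and cytosolic DNA or RNA can turn on interferon-stimulated genes, while NF-κB turns on cytokines and survival genes. Cells that stop dividing for good can take up the secretory state of senescence. PANC-1 is known to have lost CDKN2A on the short arm of chromosome 9. The question addressed here is which of these pathways differed at 48 h, and how large a change would arise if the share of degron (++)-like cells alone had differed between the doses.

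The 4 libraries resembled each other closely. The correlation of log2(FPKM + 1) across genes was 0.972 between the replicates at 0 Gy and 0.971 at 4 Gy, and each of the 4 libraries correlated best with a library of the other dose (0.976). FPKM hold no read counts, so the depth is unknown. The lowest FPKM values put the depth relative to 0 Gy replicate 1 at 0.966 for 0 Gy replicate 2, 1.16 for 4 Gy replicate 1 and 1.07 for 4 Gy replicate 2. Fewer genes were listed at 0 in the 4 Gy libraries (6957 and 7008) than in the 0 Gy libraries (7307 and 7298). These values moved with dose, and their part in the results was not tested. The epithelial keratins KRT8 and KRT18 stood between 1720 and 2118 FPKM in all 4 libraries. VIM, a mesenchymal filament, stood between 2376 and 2605 FPKM, against 14.7 and 16.6 FPKM in unirradiated degron (++) cells. CDKN2A, which PANC-1 is known to lack, had 15.2 to 21.1 FPKM here and 102.6 and 107.6 FPKM in unirradiated degron (++) cells, which goes against what is known of PANC-1. None of the leukocyte or endothelial markers passed the filter. The 6 leukocyte markers, with CD3E at 0, summed to 0.641 to 0.941 FPKM at 0 Gy and 1.46 to 1.82 FPKM at 4 Gy, a part in the results that was not tested, and the 5 endothelial markers to 0.119 FPKM at most. Of the 6 fibroblast markers, DCN was at 0 and COL1A1 and LUM were tested.

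Irradiated degron (−) cells differed from unirradiated ones mostly by genes that were higher. With limma over all 12 libraries, 531 of the 12190 genes (4.36%) rose and 131 (1.07%) fell at a Benjamini-Hochberg adjusted p under 0.05, together 5.43%. After quantile normalization 595 rose and 258 fell, so the share of rises among the calls went from 80.2% to 69.8%. The median log2 fold change was 0.39 among the genes that rose and -0.26 among those that fell, against 0.004 over all tested genes. The 4 Gy libraries were both above the 0 Gy libraries for 27.1% of the tested genes and both below for 24.3%. Genes are called with a spread estimated over all 6 groups. With only the 6 degron (−) libraries 192 genes passed, and with only the 4 libraries compared 48 did. The count was 397 without 0 Gy replicate 1, 221 without 0 Gy replicate 2, 386 without 4 Gy replicate 1 and 163 without 4 Gy replicate 2, and 129 genes passed in all 4 of these fits. No source says that the replicates came from separate cultures, so p-values measure only the spread between these libraries. An exact permutation test on 2 against 2 libraries cannot give a p below 0.333, so none was used.

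**Figure D1:**
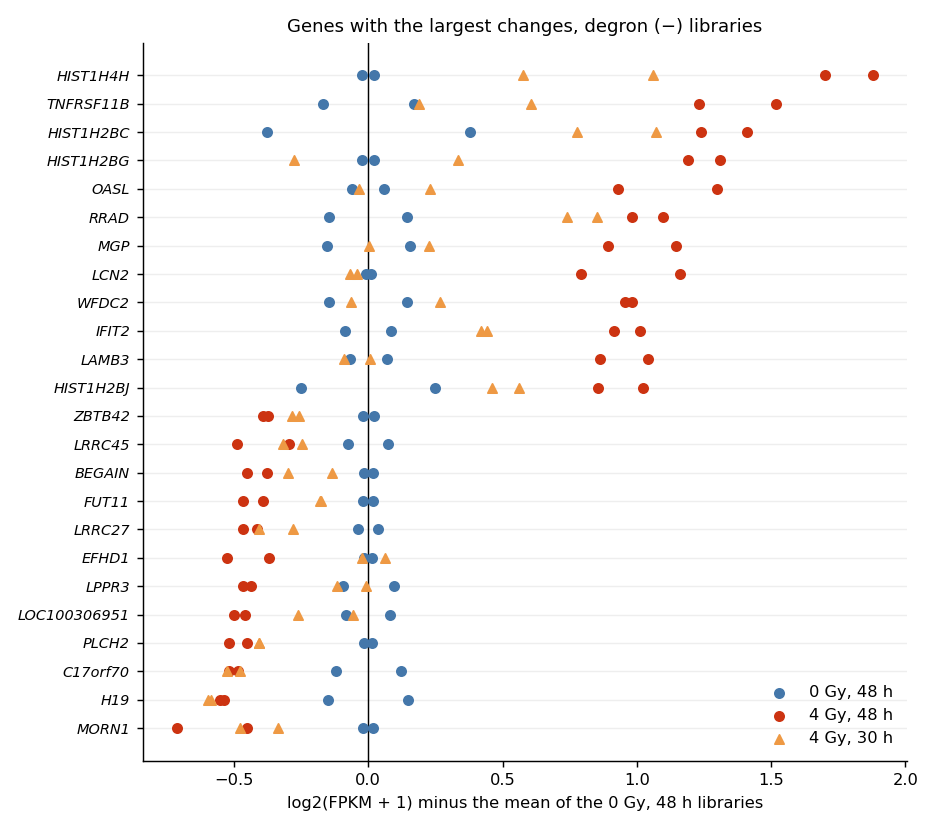
The 12 largest rises and 12 largest falls, each point 1 degron (−) library, on the x axis as log2(FPKM + 1) minus the mean of the 0 Gy, 48 h libraries. The 4 Gy, 48 h libraries (red) lie apart from the 0 Gy libraries (blue) for every gene, by up to 1.79 for HIST1H4H, and the falls are smaller than the rises, with MORN1 at -0.58.

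Genes of the histone clusters were among the largest rises. The replication-dependent histone genes sit in clusters and package newly made DNA in S phase, and most of their transcripts end in a stem loop and lack a poly(A) tail. Of 73 such genes listed, 27 were tested and 8 rose, or 29.6%, against 4.36% of all genes, and none fell. HIST1H4H, a histone H4 gene, had FPKM of 3.96 and 4.11 at 0 Gy and of 15.4 and 17.5 at 4 Gy. Both 4 Gy libraries lay far above both 0 Gy libraries, and the change was 1.79 on the log2 scale (standard error, SE, 0.23; adjusted p = 0.00378, limma). HIST1H2BC had 4.65 and 8.54 FPKM at 0 Gy and 18.5 and 16.3 FPKM at 4 Gy. Its 0 Gy libraries differed from each other, yet neither reached the 4 Gy libraries, and the log2 fold change was 1.32 (SE 0.21, limma adjusted p = 0.00803). HIST1H2BK, the most abundant of the 8, had 103.5 and 96.2 FPKM at 0 Gy and 150.8 and 160.8 FPKM at 4 Gy, with a log2 fold change of 0.64 (SE 0.05, limma adjusted p = 0.000458). HIST1H2BG, HIST1H2BJ, HIST2H2BE and HIST1H2BD rose by 1.25, 0.94, 0.81 and 0.51 on the log2 scale, so 6 of the 8 were H2B genes. The linker histone HIST1H1C rose by 0.55. The median of the 27 was 0.55, against 0.004 over all tested genes. The summed FPKM of all 73 listed genes, HIST1H2BK included, went from 234.2 and 251.2 to between 387.1 and 392.0. The 19 members that did not pass ranged from -0.53 for HIST1H2AM to 0.93 for HIST1H3G. Of the 9 histone genes tested that are used outside S phase, 2 linker histones fell, where 1.07% of all genes fell. They were H1FX, by 0.25, and H1F0, by 0.18 on the log2 scale. Neither passed with no filter, with values rescaled to TPM or with the replicate number as a block. The list held 5 higher genes without 0 Gy replicate 2 and 5 without 4 Gy replicate 2, and HIST1H4H, HIST1H2BC, HIST1H2BK, HIST2H2BE and HIST1H1C passed with any 1 library left out. HIST1H2BG, with an adjusted p of 0.0164 (limma), did not pass in any of those fits. Histone genes of a cluster are near-identical copies, so reads can be split between them and single values are uncertain. The libraries were prepared with an mRNA kit, and how far they hold histone transcripts without a poly(A) tail is unknown.

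The octamer ATTTGCAT is a known element of H2B promoters, and it is shown for HIST1H2BJ and HIST1H2BK, which rose and have an entry in the RefSeq promoter table of GRCh38.p14. Each window holds 250 bases before to 50 bases after the gene's start, 5′ to 3′ on the gene's strand, with the octamer in capitals. HIST1H2BJ lies on the minus strand at chr6:27132746-27133045 and HIST1H2BK on the minus strand at chr6:27146809-27147108.
HIST1H2BJ: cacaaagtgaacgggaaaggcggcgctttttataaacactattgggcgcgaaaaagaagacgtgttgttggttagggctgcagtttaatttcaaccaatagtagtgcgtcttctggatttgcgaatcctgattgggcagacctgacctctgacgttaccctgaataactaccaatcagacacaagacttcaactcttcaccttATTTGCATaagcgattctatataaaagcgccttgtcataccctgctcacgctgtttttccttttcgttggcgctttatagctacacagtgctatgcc
HIST1H2BK: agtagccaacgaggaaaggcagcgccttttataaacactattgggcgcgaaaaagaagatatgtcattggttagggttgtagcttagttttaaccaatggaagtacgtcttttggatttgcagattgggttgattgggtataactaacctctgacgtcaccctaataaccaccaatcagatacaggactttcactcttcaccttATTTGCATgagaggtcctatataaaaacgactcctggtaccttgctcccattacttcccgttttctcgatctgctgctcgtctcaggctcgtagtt
On either strand, the octamer was found in 1.77% of all 35116 promoters of the table and in 3 of the 4 H2B genes that rose and had a window (HIST1H2BJ, HIST1H2BK and HIST2H2BE). It was also in 2 of the 3 H2B genes with a window that did not pass. Among all clustered histone genes with a window it was in 3 of 6 that rose and in 9 of 17 that did not pass (52.9%). It overlapped no other motif searched in these windows.

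**Figure D2:**
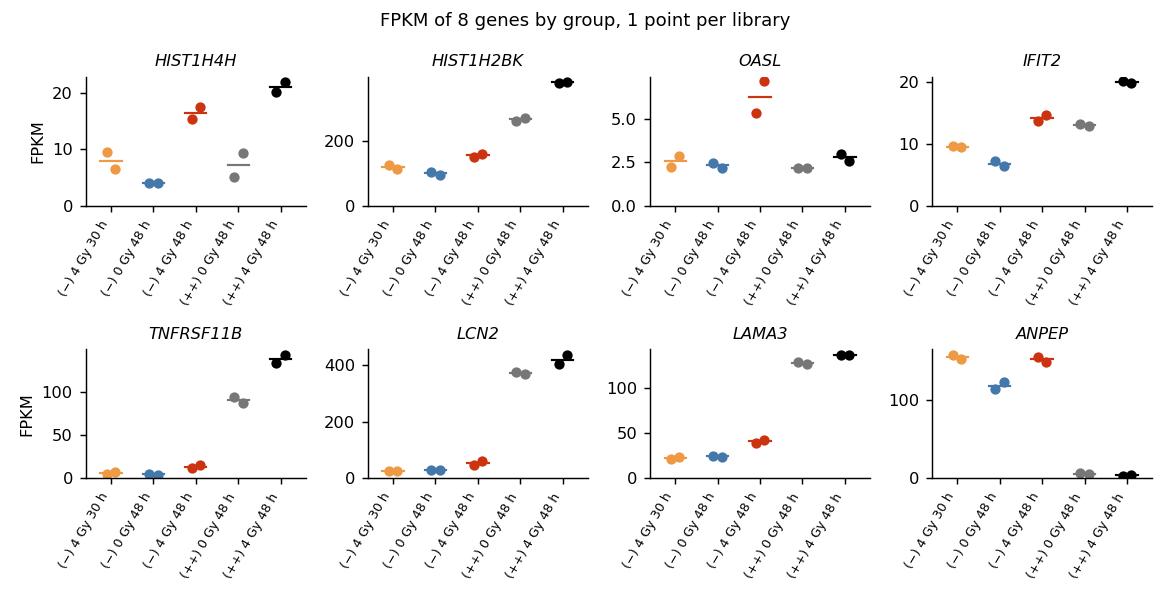
FPKM of 8 genes in the degron (−) libraries, (−), and the degron (++) libraries, (++), at 48 h, and in degron (−) at 4 Gy and 30 h, with 1 point per library and a line at the mean of 2. OASL stands higher in degron (−) at 4 Gy and 48 h (5.33 and 7.17 FPKM) than in any other group plotted, whereas TNFRSF11B and LCN2 stay far below the degron (++) groups.

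Interferon-stimulated genes formed the next group. They encode sensors and effectors against viral RNA and are switched on by signals of the interferon receptors or, for some, by IRF3 alone. Of 38 tested genes of this list 12 rose (31.6%, against 4.36% of all genes) and none fell, and the median log2 fold change was 0.24. OASL, a relative of the oligoadenylate synthetases, had 2.46 and 2.18 FPKM at 0 Gy and 5.33 and 7.17 FPKM at 4 Gy. The groups lay apart, and the log2 fold change was 1.11 (SE 0.13, limma adjusted p = 0.0025). IFIT2, which binds foreign RNA, had 7.23 and 6.31 FPKM at 0 Gy and 13.7 and 14.6 FPKM at 4 Gy, with a log2 fold change of 0.96 (SE 0.07, limma adjusted p = 0.000342). Its neighbours IFIT3 and IFIT1 rose by 0.62 and 0.52. IFI6, a mitochondrial interferon-induced protein, had 13.6 and 11.98 FPKM at 0 Gy and 22.9 and 20.1 FPKM at 4 Gy, a log2 fold change of 0.70 (SE 0.09, limma adjusted p = 0.00377). The cytosolic RNA sensors IFIH1 and DDX58 rose by 0.46 and 0.43, and the factor IRF1 by 0.45. OAS2, OAS3, ISG15 and PARP12 rose by 0.53, 0.27, 0.27 and 0.21. The other 26 members ranged from -0.30 for IFITM1 to 0.44 for OAS1, and their adjusted p lay above 0.05. The list held 7 higher genes without 0 Gy replicate 2 and 5 without 4 Gy replicate 2, and IFI6, IFIT2, IFIT3, IRF1 and OASL passed with any 1 library left out.

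The element through which these genes are known to be induced, the interferon-stimulated response element (ISRE), was searched as GAAA, any 2 bases and GAAA again, on both strands. It is shown in capitals for IFIT1, IFIT3 and IFI6, where the lower-case letters are the rest of the RefSeq promoter window on GRCh38.p14, read on the gene's strand. IFIT1 lies on the plus strand at chr10:89392373-89392672, IFIT3 on the plus strand at chr10:89327747-89328046 and IFI6 on the minus strand at chr1:27672143-27672442.
IFIT1: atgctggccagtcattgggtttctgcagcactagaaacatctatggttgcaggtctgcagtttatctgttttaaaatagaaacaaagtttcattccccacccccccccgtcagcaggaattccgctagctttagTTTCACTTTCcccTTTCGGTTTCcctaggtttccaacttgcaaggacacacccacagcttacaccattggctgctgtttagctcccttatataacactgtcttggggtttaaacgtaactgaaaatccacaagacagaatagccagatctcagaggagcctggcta
IFIT3: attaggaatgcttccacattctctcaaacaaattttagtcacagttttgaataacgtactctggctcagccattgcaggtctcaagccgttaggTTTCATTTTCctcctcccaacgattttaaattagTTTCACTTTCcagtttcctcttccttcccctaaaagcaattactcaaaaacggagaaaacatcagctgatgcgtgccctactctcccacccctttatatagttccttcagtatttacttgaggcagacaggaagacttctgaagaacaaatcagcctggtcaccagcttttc
IFI6: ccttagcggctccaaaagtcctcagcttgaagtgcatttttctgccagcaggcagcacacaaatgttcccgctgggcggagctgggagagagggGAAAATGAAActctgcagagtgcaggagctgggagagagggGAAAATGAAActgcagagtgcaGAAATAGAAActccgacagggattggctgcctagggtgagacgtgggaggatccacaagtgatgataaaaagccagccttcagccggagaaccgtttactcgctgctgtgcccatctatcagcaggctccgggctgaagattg
The windows of IFIT1 and IFIT3 hold 2 matches each, both on the other strand, and that of IFI6 holds 3. The element was in 7 of the 9 genes that rose and had a window (77.8%) and in 11 of the 21 that did not pass (52.4%), against 3.57% of all promoters. None of the matches shown overlapped another motif searched. A match describes the letters only.

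Cytokine genes and targets of NF-κB rose as well. Of 23 tested, 13 rose (56.5%, against 4.36% of all genes), none fell, and the median log2 fold change was 0.45. The cytokine IL6 had 4.30 and 4.55 FPKM at 0 Gy and 8.003 and 10.7 FPKM at 4 Gy, a log2 fold change of 0.92 (SE 0.13, limma adjusted p = 0.00549). IL32, another cytokine, had 7.94 and 6.50 FPKM at 0 Gy and 14.4 and 13.1 FPKM at 4 Gy, a log2 fold change of 0.85 (SE 0.13, limma adjusted p = 0.0082). ICAM1, an adhesion molecule for leukocytes, had 79.9 and 82.4 FPKM at 0 Gy and 121.5 and 122.2 FPKM at 4 Gy. Its replicates differed little and the log2 fold change was 0.58 (SE 0.04, limma adjusted p = 0.000342). The chemokine CX3CL1 rose by 0.44, and it is listed at 0 in 3 of the 4 degron (++) libraries at 48 h. IL1A and IL1B rose by 0.75 and 0.69 from low levels, 1.48 FPKM or less at 0 Gy. SAA1, an acute phase protein, rose by 1.102 and LCN2, which binds iron carriers of bacteria, by 0.98. The inhibitors that NF-κB itself turns on, NFKBIA and TNFAIP3, rose by 0.30 and 0.48, and the subunits NFKB2 and RELB by 0.35 and 0.33. PTGS2, the inducible cyclooxygenase, rose by 0.45. IL8, CXCL1 and CCL2 had log2 fold changes of 0.60, 0.60 and 0.56 and did not pass (adjusted p = 0.15, 0.12 and 0.283, limma). The list held 7 higher genes without either 0 Gy replicate, 8 without 4 Gy replicate 1 and 5 without 4 Gy replicate 2, and CX3CL1, ICAM1, IL6 and LCN2 passed with any 1 library left out. CD14, ITGAM and the other leukocyte markers stood at 1.02 FPKM or less in these libraries.
For NFKBIA, which lies on the minus strand at chr14:35404700-35404999, the κB consensus is in capitals in the RefSeq window on GRCh38.p14 because this gene is a standard readout of NF-κB.
NFKBIA: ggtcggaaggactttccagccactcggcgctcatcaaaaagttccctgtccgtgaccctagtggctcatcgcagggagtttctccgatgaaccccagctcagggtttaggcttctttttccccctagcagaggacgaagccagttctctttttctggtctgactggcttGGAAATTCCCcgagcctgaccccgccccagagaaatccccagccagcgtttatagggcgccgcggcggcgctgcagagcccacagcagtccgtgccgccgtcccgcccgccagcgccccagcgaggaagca
The κB consensus, searched on both strands, was in 5 of 10 genes that rose and had a window and in 5 of 7 that did not pass, against 5.91% of all promoters.

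The TNF superfamily holds ligands and receptors of cell death and survival. Of 19 tested, 9 rose (47.4%, against 4.36% of all genes) and none fell, with a median log2 fold change of 0.33. TNFRSF11B, a decoy receptor (osteoprotegerin), had 5.12 and 3.83 FPKM at 0 Gy and 11.8 and 14.6 FPKM at 4 Gy. It rose by 1.37 (SE 0.15, limma adjusted p = 0.00189), the largest change of the list. Of the receptors for the death ligand TRAIL, TNFRSF10A and TNFRSF10B, which signal death, rose by 0.42 and 0.26, and TNFRSF10D, a decoy, by 0.50. TNFRSF10B had 21.1 and 21.6 FPKM at 0 Gy and 26.2 and 25.5 FPKM at 4 Gy. The death receptor TNFRSF21 and the lymphotoxin receptor LTBR rose by 0.43 and 0.51, and FAS had 0.25 (adjusted p = 0.228, limma). Among ligands, LTB, TNFSF15 and TNFSF9 rose by 0.79, 0.70 and 0.52. TNFRSF10B, TNFRSF10D, TNFRSF11B, TNFRSF21 and TNFSF15 passed with any 1 library left out, and the count was 6 without either 4 Gy replicate. In the BCL2 family, which sets the threshold of mitochondrial death, 3 of 13 tested genes rose (23.1%, against 4.36% of all genes). PMAIP1 and BID, which promote death, rose by 0.54 and 0.22, and BCL2A1, which blocks it, by 0.35. None of the 3 passed in the fit of the 6 degron (−) libraries or without 0 Gy replicate 2, and 1 of the 13 passed when any other library was left out.

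Among 31 tested genes that the DNA damage checkpoint is known to induce, 4 rose (12.9%, against 4.36% of all genes) and none fell. The median log2 fold change was 0.05, and both 4 Gy libraries lay above both 0 Gy libraries for 14 of the 31, which 27.1% of all genes did. CDKN1A, the cyclin-dependent kinase inhibitor p21, had 64.1 and 59.7 FPKM at 0 Gy and 66.9 and 61.6 FPKM at 4 Gy, so the groups overlapped (log2 fold change 0.05, adjusted p = 0.777, limma). MDM2, a ubiquitin ligase, had 10.3 and 10.7 FPKM at 0 Gy and 11.2 and 10.1 FPKM at 4 Gy and overlapped as well. GADD45A, a stress sensor, had 28.1 and 29.9 FPKM at 0 Gy and 42.0 and 38.4 FPKM at 4 Gy, a log2 fold change of 0.46 (SE 0.08, limma adjusted p = 0.0166). KITLG rose by 0.52, TNFRSF10B by 0.26 and PLK2 by 0.21. GDF15 had 10.2 and 10.9 FPKM at 0 Gy and 17.4 and 16.1 FPKM at 4 Gy and did not pass (log2 fold change 0.62, adjusted p = 0.0937, limma). The list held 2 higher genes without either 0 Gy replicate and 1 without 4 Gy replicate 2, and TNFRSF10B passed with any 1 library left out.

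Genes of the cell cycle and of DNA repair held 1 call. None of the 36 tested genes of G2 and mitosis passed, and their median log2 fold change was 0.02. MKI67, a mark of cycling cells, had 67.2 and 74.97 FPKM at 0 Gy and 72.2 and 67.7 FPKM at 4 Gy. CCNB1, the mitotic cyclin, had 221.6 and 205.7 FPKM at 0 Gy and 222.2 and 247.1 FPKM at 4 Gy. Of 41 genes of S phase and replication 1 fell, RFC4, by 0.17 on the log2 scale, where 1.07% of all genes fell. RFC4 did not pass with values rescaled to TPM or with the replicate number as a block. The median of the 41 was -0.06. None of 43 DNA repair genes passed (median -0.06). Both 4 Gy libraries lay below both 0 Gy libraries for 18 of the 41 and 19 of the 43, which 24.3% of all genes did. No S phase gene rose beside the clustered histone genes.

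Secreted factors of the senescent state rose as well. Of 22 tested, 13 rose (59.1%, against 4.36% of all genes), none fell, and the median log2 fold change was 0.42. THBS1, a matrix glycoprotein, had 78.8 and 78.6 FPKM at 0 Gy and 116.6 and 125.9 FPKM at 4 Gy, a log2 fold change of 0.62 (SE 0.05, limma adjusted p = 0.00048). PLAUR, the receptor of urokinase, had 12.1 and 12.3 FPKM at 0 Gy and 17.1 and 19.3 FPKM at 4 Gy, a log2 fold change of 0.54 (SE 0.06, limma adjusted p = 0.00151). The urokinase gene PLAU rose by 0.20 and the tissue-type activator PLAT by 0.51. TIMP1 and TIMP2, inhibitors of matrix metalloproteinases, rose by 0.30 and 0.50. The growth factors HBEGF and EREG rose by 0.45 and 0.47, CTGF by 0.39, and STC1, a secreted hormone, by 0.67. The binding proteins IGFBP3 and IGFBP4 rose by 0.64 and 0.31. GLB1, the enzyme behind the senescence stain, had 10.7 and 11.4 FPKM at 0 Gy and 13.97 and 13.9 FPKM at 4 Gy, a log2 fold change of 0.31 (SE 0.05, limma adjusted p = 0.00928). LMNB1, which is known to fall in senescent cells, had -0.06 (adjusted p = 0.549, limma), and CDKN1A is given above. The count was 8 without 0 Gy replicate 1 and 4 without 4 Gy replicate 2, and PLAUR, STC1, THBS1 and TIMP1 passed with any 1 library left out.

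Of 33 epithelial genes tested, 15 rose (45.5%, against 4.36% of all genes) and none fell, with a median log2 fold change of 0.38. LAMB3 and LAMA3 encode laminin chains of epithelial basement membranes, and both rose. LAMB3 had 20.9 and 18.9 FPKM at 0 Gy and 36.9 and 42.0 FPKM at 4 Gy, a log2 fold change of 0.95 (SE 0.07, limma adjusted p = 0.000342). LAMA3 had 24.9 and 23.7 FPKM at 0 Gy and 38.8 and 42.8 FPKM at 4 Gy, and rose by 0.72. CDH1, the epithelial cadherin, had 8.36 and 7.69 FPKM at 0 Gy and 11.7 and 12.8 FPKM at 4 Gy, a log2 fold change of 0.56 (SE 0.05, limma adjusted p = 0.00107). The tight junction gene CLDN4, the surface gene EPCAM and the keratin KRT7 rose by 0.52, 0.37 and 0.44. Rises from 0.25 to 0.63 were those of CDH3, DSP, GRHL2, ITGB6, OVOL1, SPINT1 and ST14. Of 19 mesenchymal genes 3 rose (15.8%, against the same 4.36%), THY1 by 0.53, the cadherin CDH2 by 0.47 and the factor SNAI2 by 0.37, and VIM did not pass at -0.07. No mesenchymal gene passed without 0 Gy replicate 2 or without 4 Gy replicate 2. The epithelial count was 9 without 0 Gy replicate 2 and 8 without 4 Gy replicate 2, and CDH1, CLDN4, LAMA3, LAMB3 and SPINT1 were among the 7 that passed with any 1 library left out. KRT13 had a log2 fold change of 0.84 and did not pass here (adjusted p = 0.067, limma).

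**Figure D3:**
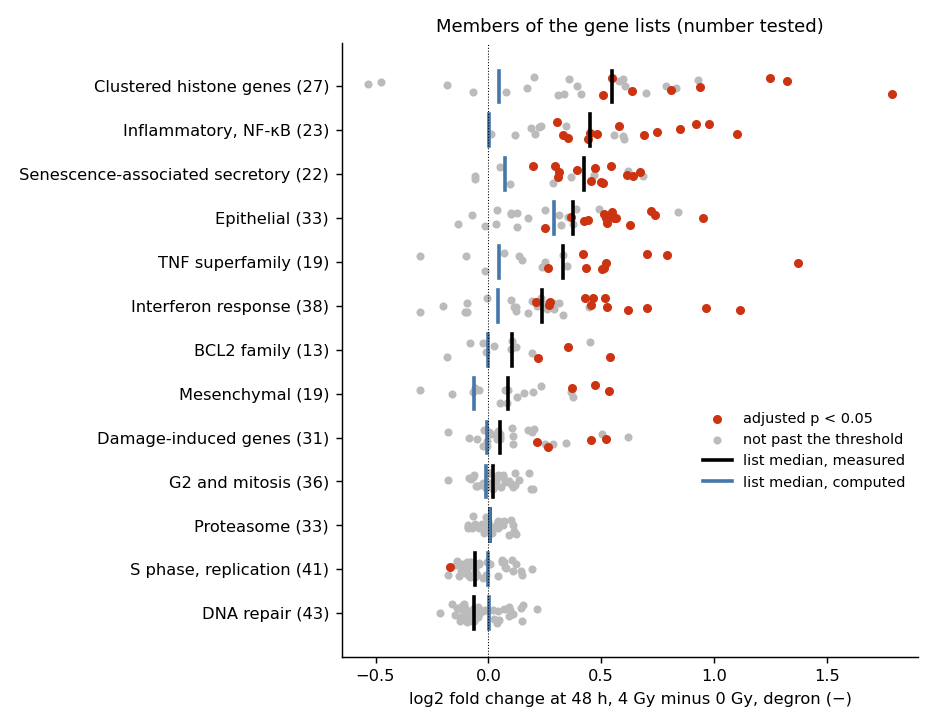
Log2 fold change at 48 h, 4 Gy minus 0 Gy in degron (−), for every tested member of 13 gene lists, red where the adjusted p was under 0.05. The black bar is the median of the list and the blue bar the median that the share shift alone would give. Blue lies near 0 for cytokine and interferon lists (0.004 and 0.04) and near the black bar for the epithelial list (0.29 of 0.38).

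Stress and metabolic pathways held 9 calls in 4 lists, each to be read against the 4.36% of all genes that rose. The proteasome, whose activity the ZsGreen reporter reads, had none among 33 tested subunits, with a median log2 fold change of 0.007. Of 20 NRF2 targets 3 rose (15%), OSGIN1 by 0.39, SLC7A11, the cystine carrier, by 0.29 and TXNRD1 by 0.17. Of 23 genes of the unfolded protein and heat shock responses 2 rose (8.70%), the factor ATF3 by 0.60 and the chaperone DNAJB9 by 0.35. HMGCS1 and IDI1, enzymes of cholesterol synthesis, rose by 0.41 and 0.23, as 2 of 23 (8.70%). NDRG1 and the glucose carrier SLC2A3 rose by 0.42 and 0.34, as 2 of 20 genes of hypoxia and glycolysis (10%). Each of these genes lost its call in at least 1 of the 4 fits.

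Beyond the lists, RRAD, a small GTPase-related protein, had 2.88 and 2.17 FPKM at 0 Gy and 5.92 and 6.50 FPKM at 4 Gy, a log2 fold change of 1.04 (SE 0.11, limma adjusted p = 0.00177). MGP, an inhibitor of calcification, had 2.28 and 1.65 FPKM at 0 Gy and 4.47 and 5.53 FPKM at 4 Gy and rose by 1.02, and the secreted protein WFDC2 rose by 0.97. RRAD and MGP passed with any 1 library left out, and WFDC2 lost its call without 0 Gy replicate 2 and without 4 Gy replicate 2. The falls were smaller. H19, an imprinted long noncoding RNA, had 62.2 and 50.4 FPKM at 0 Gy and 38.2 and 37.9 FPKM at 4 Gy, a log2 fold change of -0.55 (SE 0.09, limma adjusted p = 0.00928), and did not pass without 4 Gy replicate 2. PLCH2, a phospholipase C, had 39.7 and 40.6 FPKM at 0 Gy and 29.1 and 27.8 FPKM at 4 Gy, a log2 fold change of -0.48 (SE 0.06, limma adjusted p = 0.00239). C17orf70 fell by 0.50, and it and PLCH2 passed with any 1 library left out. The other 9 of the 12 largest falls, MORN1, LOC100306951, LPPR3, EFHD1, LRRC27, FUT11, BEGAIN, LRRC45 and ZBTB42, lay between -0.58 and -0.38, and each lost its call in at least 2 of those fits. Among 120 tested small RNA genes 3 rose (2.5%, against 4.36% of all genes) and 3 fell, where 1.07% of all genes fell. SNORA29, SCARNA7, SNORA60 and SNORD89 are listed at 0 in both libraries of 1 dose, which can be a failed estimate, so no fold is given for them.

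How far degron (++)-like cells could enter was read from marker genes chosen only in the 30 h libraries, which are in neither arm of the comparison. The 67 markers had FPKM of at least 10 in both degron (++) libraries at 30 h and at least 10 times the mean of degron (−) there. They include small RNA genes listed at 0 in both degron (−) libraries at 30 h, which pass at any ratio. In the degron (−) libraries their median level, relative to unirradiated degron (++) cells, was 11.2% and 9.37% at 0 Gy and 14.1% and 16.3% at 4 Gy. Both 4 Gy libraries lay above both 0 Gy libraries. Since the 30 h libraries chose the markers, the marker level in them is no result. The 9p21 genes CDKN2A, CDKN2B and MTAP, none of them a marker, had medians of 17.9% and 14.5% at 0 Gy, 20.1% and 22.1% at 4 Gy, and 11.8% and 10.5% at 4 Gy and 30 h. MTAP alone had 4.07 and 3.77 FPKM at 0 Gy and 5.001 and 4.87 FPKM at 4 Gy, and CDKN2B rose by 0.45 while CDKN2A and MTAP did not pass. The reverse markers, 249 genes chosen in the same way as high in degron (−), stood at a median of 96.6% and 93.5% of their 0 Gy mean in the 4 Gy libraries. Of the 249, 109 were lower in both 4 Gy libraries and 50 were higher. Of the 67 markers 45 were higher in both 4 Gy libraries and 4 were lower, as were 27.1% and 24.3% of all tested genes. In bulk libraries a larger number of such cells, more RNA per cell and a change of these genes within degron (−) cells cannot be told apart.

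**Figure D4:**
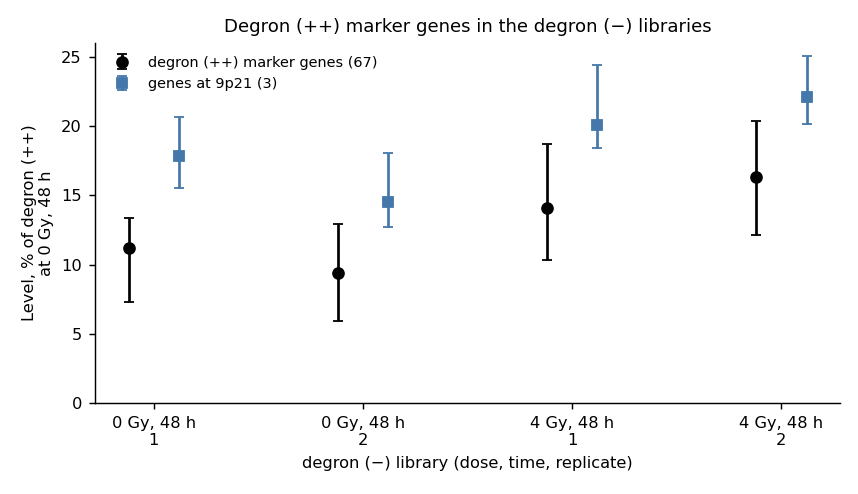
Median level of the 67 degron (++) marker genes (black circles) and of 3 genes at 9p21 (blue squares) in each degron (−) library at 48 h, in percent of their level in degron (++) cells at 0 Gy and 48 h, with bars from the first to the last quartile over genes. In both sets the 4 Gy libraries (14.1% and 16.3% for the markers) lie above the 0 Gy libraries (11.2% and 9.37%), and the quartiles overlap.

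The share shift is the median over markers of the change at 4 Gy, divided by the degron (++) level minus the 0 Gy level. It was 5.69% ± 2.22 (SD over the 4 pairs of a 0 Gy and a 4 Gy library), with pairs between 2.92% and 8.18%. Almost no cell of this line is ZsGreen positive, yet the marker level at 0 Gy was already 11.2% and 9.37%. The marker level and the shift are therefore no measure of the number of ZsGreen-positive cells. What sets their size was not tested. Over the 67 markers the quartiles were 3.95% and 10.3%, and 62 were above 0. A value above 0 can also be a fall toward a lower degron (++) level, as for the small RNA markers SNORA45, MIR663A and SNORD35A. Small RNA markers set both extremes, -63.25% (SNORD60) and 3969% (SNORD35A). With the 24 markers at a ratio of at least 20 the shift was 8.24%. Most of the 24 are small RNA genes listed at 0 in both degron (−) libraries at 30 h. With 283 markers at a ratio of at least 5 the shift was 6.78%, and with the 9p21 genes it was 7.57%. Without 4 Gy replicate 2 the shift was 3.75%, and without 0 Gy replicate 1 it was 6.75%. With the 249 reverse markers, used only after the data were seen, it was 4.75%. Their quartiles were -5.48% and 11.8%, and 159 of them were above 0. Some of the 67 markers did not follow the shift. LUM had 1.38 and 1.16 FPKM at 0 Gy and 1.23 and 1.60 FPKM at 4 Gy, a log2 fold change of 0.09, where a shift of this size gives 0.64. The change that such a shift would give was then computed for every gene from its own distance to unirradiated degron (++) cells, which assumes that the added cells match those cells in every gene.

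For most genes that rose, the computed change was the smaller part. Of the 531, the computed change reached at least 50% of the measured change in FPKM for 96 genes, was below 50% for 354 and had the opposite direction for 81. The median was 21.3%, with quartiles of 5.24% and 43.4%. Among the 131 that fell it stayed below 50% for 119 and was opposite for 12, with a median of 12.9%. The direction alone was shared far more often, since 450 of the 531 rises and 119 of the 131 falls were toward the level of degron (++) cells. With the computed change taken off the 4 Gy libraries, 231 genes were higher (1.89% of all tested) and 50 lower (0.41%). Of the original calls, 224 rises (42.2%) and 32 falls (24.4%) remained in their direction. For 91 rises and 19 falls, the 4 Gy libraries lay beyond all 4 degron (++) libraries at 48 h. The same held for 44.2% of all tested genes on the higher side and 37.6% on the lower, and 63 of the 91 and 8 of the 19 were already beyond at 0 Gy.

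The lists differed in this respect. For the epithelial genes the median computed log2 fold change was 0.29 of a measured 0.38, the median was 0.09 once it was taken off, and 4 of 15 remained, LAMA3, LAMB3 and CLDN4 among them. For DSP, KRT7, ITGB6 and GRHL2 the computed change came to between 80.3% and 95.4% of the measured one, and for CDH1 to 75.01%. None of the epithelial genes lay beyond the degron (++) libraries. For clustered histones the computed median was 0.05 of 0.55 and 7 of 8 remained past the threshold. For HIST1H4H the computed part was 1.47%. For the interferon list it was 0.04 of 0.24 with 7 left, and OASL, IFI6, IFIT1 and DDX58 lay beyond all degron (++) libraries, IFIT1 and DDX58 already at 0 Gy. For OASL, IFI6, IFIT1 and DDX58 the computed change was in the opposite direction, because these genes are lower in unirradiated degron (++) cells. For the inflammatory list it was 0.004 of 0.45 with 7 left, and CX3CL1, NFKBIA, NFKB2, RELB and ICAM1 lay beyond them at both doses. LCN2 differed from its list, with 374.4 and 369.4 FPKM in unirradiated degron (++) cells, a computed part of 71.2% and no call once that was taken off (adjusted p = 0.267, limma). TNFRSF11B likewise had a computed part of 56.6% and an adjusted p of 0.0596 (limma) afterwards. Of the 13 secretory genes 9 were left, and for IGFBP3 and the glucose carrier SLC2A3 the computed change exceeded the measured one, at 115.4% and 122.7%. Of 9 genes of the TNF superfamily 6 were left, and of the 4 genes known to be induced by DNA damage TNFRSF10B and GADD45A. NNMT, an enzyme of nicotinamide methylation, was the 1 rise that passed in the opposite direction afterwards (log2 fold change -0.34, adjusted p = 0.0288, limma). LCN2, TNFRSF11B, IGFBP3, SLC2A3, ITGB6 and NNMT are themselves among the markers that set the shift. Their computed parts only compare the shift with their own change, so what is left of them is no separate result.

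**Figure D5:**
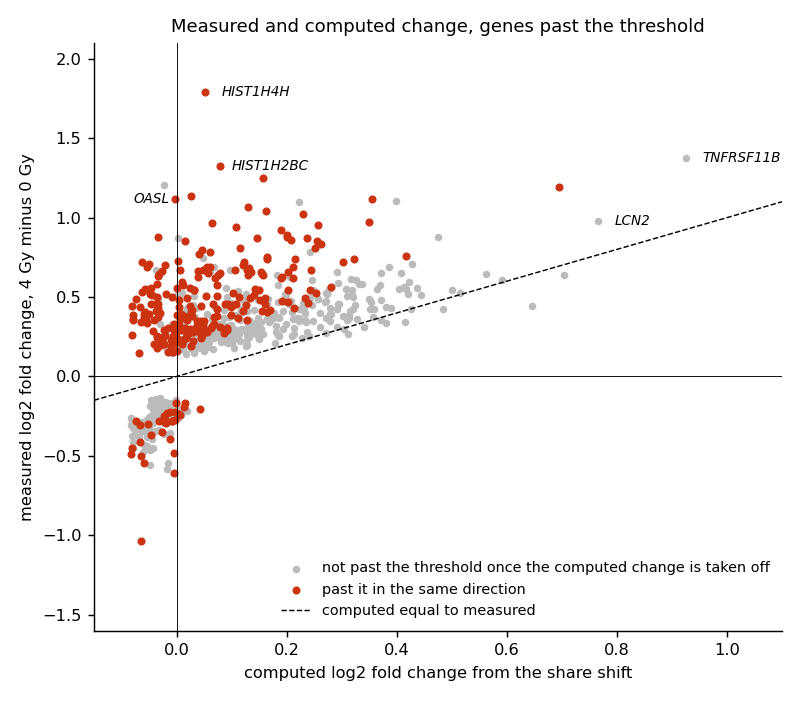
Measured log2 fold change against the one computed from the share shift, 1 point for each gene past the threshold, with 3 small RNA genes (SNORA29, SNORA60 and SNORD89) outside the axes. Red genes, 224 rises and 32 falls, stayed past the threshold once the computed change was taken off, and most points lie above the dashed line of equality among the rises.

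The same contrast in degron (++) cells gave 182 genes higher (1.49%) and 47 lower (0.386%), in libraries that do not enter the 4 compared here. It was tested only on the genes that passed the filter in those 4 degron (−) libraries. Genes expressed only in degron (++) cells were thus left out, while genes near 0 in them were kept. The numbers of calls, also those of the lists, are therefore not on an equal footing between the 2 kinds of cells. The clustered histone genes changed by a median of 0.66 (log2) there, with 5 genes higher, beside 0.55 and 8 genes in degron (−) cells. HIST1H4H rose by 1.47 there, from 5.07 and 9.39 FPKM to 20.2 and 21.9 FPKM. The inflammatory list had medians of 0.32 and 0.45, with 8 and 13 genes higher. The interferon list had medians of -0.06 and 0.24, with 1 gene (IFIT2) and 12 genes higher, and no interferon gene passed the test of the difference. The epithelial list had medians of 0.06 and 0.38. By the interaction term, which tests whether the changes differ, 18 genes passed (0.148%). LAMA3 was among them, with a change of 0.10 in degron (++) cells against 0.72. ANPEP, an aminopeptidase of the cell surface, had 113.1 and 122.6 FPKM at 0 Gy and 154.5 and 148.4 FPKM at 4 Gy in degron (−) cells, a log2 fold change of 0.36 against -0.64 in degron (++) cells. With 1 of the 4 libraries left out, between 3 and 31 genes passed this term: 5 without 0 Gy replicate 1, 3 without 0 Gy replicate 2, 31 without 4 Gy replicate 1 and 4 without 4 Gy replicate 2. DKK1, an inhibitor of Wnt signalling, and SNORA45 passed in all 4. However, SNORA45 is listed at 0 in both degron (−) libraries at 4 Gy and 30 h, which can be a failed estimate.

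The degron (−) libraries at 4 Gy and 30 h have no 0 Gy partner, so they are only set beside the others. HIST1H4H stood at 9.50 and 6.51 FPKM at 30 h, between the 48 h groups. IFIT2 (9.55 and 9.39 FPKM) and RRAD (5.33 and 4.86 FPKM) stood between them too. ICAM1 had 113.6 and 118.9 FPKM and NFKBIA 60.2 and 62.9 FPKM at 30 h, so ICAM1 was just below and NFKBIA above the 4 Gy libraries at 48 h. OASL (2.25 and 2.89 FPKM) and LAMB3 (18.6 and 19.97 FPKM) were still near the 0 Gy level. CDH1 and KRT7 were lower than in any of the 4 libraries, with 6.56 and 6.79 FPKM and with 132.8 and 143.8 FPKM.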

How the data were processed

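RNA of 12 libraries was sequenced after extraction of total RNA and preparation with a stranded mRNA kit. The authors computed FPKM and deposited 1 value per gene symbol and library. The submitters' processing notes name TopHat2 2.1.1, Bowtie2 2.2.8, SAMtools 0.1.18, Cuffdiff 2.2.1 and the build hg19, and the annotation is not given in the sources used here. Depth is unknown, since FPKM hold no counts, so no counting interval is given. MIR622 held 24.3% to 27.1% of the summed FPKM in the 4 libraries. Among the 662 genes called, 29 are listed at 0 in at least 1 of the 12 libraries, 5 of them in at least 1 of the 4 compared.

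From the FPKM, log2(FPKM + 1) was tested with limma 3.58.1 (eBayes with trend) in R 4.3.3, with 6 group means over the 12 libraries and Benjamini-Hochberg adjustment at 0.05. A fold change on this scale understates that of low genes. On simulated data with 12190 genes this comparison recovered 80% of 100 genes changed by 0.5 (log2) and 97% of 100 changed by 1, with 8 false calls. The simulation drew independent normal errors with the same spread in all 6 groups. It therefore cannot show recovery or false calls where the spread differs between groups. Other steps used Python 3.11.15, numpy 2.4.6, pandas 2.3.3 and matplotlib 3.10.9. Promoters were taken from RefSeq (GRCh38.p14), where 9626 of the tested symbols matched.

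The libraries compared and the gene lists were chosen with earlier results of these data known. The genes named are, among those past the threshold, the 12 with the largest rise and the 12 with the largest fall, without overlap of the groups and with a mean FPKM of at least 5 in the higher group, leaving out small RNA genes. Genes of the interaction term are named too, as are members of the lists, those past the threshold first and then the best known. Alternatives were a pseudocount of 0.1, no filter, a filter at FPKM 5 or over all 12 libraries, quantile normalization, values rescaled to TPM, a prior variance with no trend, a block for replicate number, only the 4 or the 6 degron (−) libraries, each library left out, small RNA genes left out, and other markers of the share. Removing the higher share estimate and using degron (−) markers were added after the data were seen. Some genes counted in the totals and lists are not reported here by name.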

Additional observations from a re-analysis of the deposited data

Results flagged for a closer look

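For 18 genes the change from 0 Gy to 4 Gy at 48 h differed between degron (++) and degron (−) cells by the interaction term of limma (adjusted p under 0.05), and 17 of them are given here. Values are the log2 change in degron (++) minus that in degron (−), so a negative value means a larger rise, or a smaller fall, in degron (−) cells. The difference was -0.9974 for ANPEP, -0.88 for ALPL, which is listed at 0 in all degron (++) libraries at 48 h, and -0.76 for PODXL, a sialomucin of the cell surface. It was -0.75 for PLXDC2, -0.72 for COL12A1, a collagen, -0.70 for NNMT, an enzyme of nicotinamide methylation, and -0.61 for BMP1, which cleaves procollagen. The laminin chain LAMA3 had -0.62. TDRD7, C9orf21 and CASP4, an inflammatory caspase, had -0.64, -0.61 and -0.54. The difference was positive for NME4 (0.36), DKK1 (0.59) and FHL2 (0.64), and NME4 fell by 0.28 on the log2 scale in degron (−) cells.

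Of these genes, ANPEP fell in degron (++) cells (log2 fold change -0.64) and rose in degron (−) cells (0.36). DKK1 had 260.9 and 252.1 FPKM at 0 Gy and 290.8 and 278.5 FPKM at 4 Gy in degron (−) cells, and rose by 0.74 in degron (++) cells. FHL2 did not pass in degron (−) cells (log2 fold change -0.21, adjusted p = 0.0848, limma). For NNMT, PLXDC2 and COL12A1 the change computed from the share shift came to 158.2%, 84.0% and 61.3% of the measured change in FPKM in degron (−) cells, and for PODXL to 9.57%. The part of the share shift in the difference was not tested further, and NNMT and PLXDC2 are themselves among the markers that set it.

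The remaining differences are those of small RNA genes, SNORA29 (-4.81), SNORA45 (3.03) and SNORD89 (5.15). SNORA29 is listed at 0 in both degron (−) libraries at 0 Gy and 48 h and SNORD89 in both at 4 Gy and 48 h. The size of these 2 differences has no meaning beyond the listing. SNORA45 is listed at 0 in both degron (−) libraries at 4 Gy and 30 h, which can be a failed estimate, so its value is uncertain too.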

How the results depend on the processing

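The 111 genes past the threshold from the lists and the largest changes kept their direction in every alternative fit that gave them a value, except where the share shift was removed. Much of this was fixed in advance. Fits that change only the filter, the trend, the block or the libraries behind the spread keep the same group means. The largest changes were also chosen for lack of overlap, so leaving out 1 library cannot turn them. The counts of genes higher and lower (531 and 131) were 325 and 57 after TPM rescaling, 43 and 5 with only the 4 libraries compared, 163 and 29 with only the 6 degron (−) libraries, 231 and 50 with the share shift removed, and 204 and 69 with its higher estimate removed. The count of genes lower was 258 after quantile normalization and 83 with the replicate number as a block, which gave 518 calls in all, 497 of them shared. The replicate numbers did not pair the libraries by the data (correlation of deviations 0.13). With 1 library left out, 142 to 349 genes were higher and 21 to 48 lower. The 18 genes of the interaction became 32 after TPM rescaling, 48 after quantile normalization, 10 with the filter over all 12 libraries, 6 with no filter, 3 with the replicate block, 93 with small RNA genes left out, and 3 to 31 with 1 library left out. The share shift was 8.24% with the markers at a ratio of at least 20, which is the higher estimate. Most of these markers are small RNA genes listed at 0 in both degron (−) libraries at 30 h. For lists, the median log2 fold change was 0.0058 (G2 and mitosis) and 0.0597 (NRF2) after TPM rescaling, 0.34 (secretory) with no filter, and 0.33 (9p21) with a pseudocount of 0.1. For clustered histones it was 0.59 with the filter at FPKM 5, 0.36 with that over 12 libraries, 0.34 with no filter, 0.64 with a pseudocount of 0.1 and 0.51 after quantile normalization. With the share shift removed, and then with its higher estimate, medians were 0.0383 and 0.0424 (G2 and mitosis), 0.16 and 0.12 (interferon), 0.25 and 0.23 (TNF superfamily), 0.30 and 0.24 (secretory), 0.0881 and -0.0615 (epithelial), 0.0032 and -0.0087 (cholesterol), 0.073 and -0.0261 (9p21), and 0.51 and 0.50 (clustered histones). With 1 library left out they ranged between -0.0023 and 0.0506 (G2 and mitosis), -0.10 to 0.0328 (replacement histones), 0.19 to 0.30 (interferon), 0.25 to 0.51 (epithelial), 0.0477 to 0.0717 (NRF2), 0.0404 to 0.12 (cholesterol), 0.23 to 0.38 (9p21), 0.43 to 0.59 (clustered histones) and -0.21 to 0.14 (small RNA). With the share shift removed IGFBP3 became -0.13 and SLC2A3 -0.10, and with the higher estimate they became -0.69 and -0.35. The higher estimate also turned CDH1 (-0.0615), CDH2 (-0.0254), CDKN2B (-0.005), DSP (-0.11), EPCAM (-0.0186), GRHL2 (-0.0917), ITGB6 (-0.15), KRT7 (-0.13), LCN2 (-0.0948), PLK2 (-0.0447), and SPINT1 (-0.0014). These turns follow from the subtraction itself, and the causes of the other moves were not tested. Depth is unknown and 2 libraries a group limit every call, as the 48 calls of the 4 libraries alone show.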

Other observations

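Lysosomal genes, listed after the data had been seen, held 8 rises and no fall among 35 tested, or 22.9% against 4.36% of all genes. The enzymes GLA (48.4 and 50.3 FPKM at 0 Gy, 59.3 and 60.4 FPKM at 4 Gy), NEU1, LIPA and IDS rose by 0.27, 0.26, 0.23 and 0.26 on the log2 scale. GLB1, also counted among the secretory genes, rose by 0.31, the proteases CTSL1 and CTSC by 0.29 and 0.28, and the cholesterol carrier NPC1 by 0.29. The list median was 0.08, and 7 of the 8 remained past the threshold once the computed share shift was taken off. The list held 4 rises without 0 Gy replicate 1, 3 without 0 Gy replicate 2, 5 without 4 Gy replicate 1 and 1 without 4 Gy replicate 2, and NPC1 passed with any 1 library left out. In degron (++) cells NEU1 is listed at 0 in both unirradiated libraries, which can be a failed estimate.

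Splicing factors of the hnRNP and SR families and their kinases, listed in the same way, held 4 falls and no rise among 37, where 1.07% of all genes fell. HNRNPR, an hnRNP protein, had 131.6 and 129.9 FPKM at 0 Gy and 108.3 and 112.5 FPKM at 4 Gy and fell by 0.24, as did HNRPDL. The kinase CLK2 fell by 0.24 and the splicing regulator TRA2A by 0.19. For 25 of the 37 both 4 Gy libraries lay below both 0 Gy libraries, against 24.3% of all genes. HNRNPR passed with any 1 library left out. No test of either list was made, since both were drawn up after values were seen.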
